A study of Saccharomyces cerevisiae with 4 samples.

Results

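The genes described here are 10 budding yeast (Saccharomyces cerevisiae) genes of protein folding in the endoplasmic reticulum (ER) and of the unfolded protein response. They were picked out by systematic name, as a group proposed with earlier results of these data known, and all 10 were found among the 6207 open reading frames (ORFs) of the array: IRE1 (YHR079C), HAC1 (YFL031W), PDI1 (YCL043C), ERO1 (YML130C), EUG1 (YDR518W), MPD1 (YOR288C), MPD2 (YOL088C), LHS1 (YKL073W), SCJ1 (YMR214W) and JEM1 (YJL073W). Wild-type cells, of a strain background the labels do not name, were grown in the rich medium YEPD at 24 °C, diluted, regrown for 2 h 30 min and split. One portion received Zymolyase 100T, which contains enzymes that break down wall glucan, at 5 units/ml, and the other received none, with 3 h given as the exposure. RNA of 2 cultures was compared, treated against untreated, with the dyes swapped for each culture, which makes 4 two-colour arrays.

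Secreted and cell wall proteins enter the ER unfolded and are folded there by chaperones and by enzymes that form disulfide bonds. When unfolded proteins collect, the membrane sensor Ire1 cuts an intron out of HAC1 mRNA, and the Hac1 protein made from the spliced form activates genes of folding, glycosylation and degradation in the ER. Yeast wall mannoproteins pass through this compartment, which makes its folding genes of interest when the wall is digested.

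Each value is the log ratio of the 2 channels of an array, taken here as log2 since the base is not stated, and multiplied by -1 where the dyes were swapped, to give all 4 arrays 1 direction. Neither labels nor file headers name the channel in the numerator. Positive values therefore mark the side of SLT2, the kinase gene of the cell wall integrity pathway, which had 2.14, 2.39, 2.18 and 2.31 on arrays 1 to 4. That side was fixed after the values of SLT2 were seen, and it is not established that it is the higher side in treated cells. Arrays 1 and 3 had the treated RNA in Cy3, arrays 2 and 4 had it in Cy5, and the pairing of arrays by culture is not stated. A ratio gives a difference between treated and untreated cells and no level, so levels were not compared between genes. No intensities or probe sequences were used here, so the signal behind a ratio and cross-hybridisation between similar genes could not be checked, and the 4 arrays limit the precision. No genome build is named for the array, so no coordinates are printed.

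Of the 10 genes, 9 had a value on each array, and IRE1 had 1 value. No member passed the test across 4543 ORFs (limma on culture averages, Benjamini-Hochberg adjusted p under 0.05), while 5.94% of those ORFs did. At an unadjusted p under 0.05 there were 2 members, PDI1 and LHS1, against 19.3% of ORFs. The means of the 9 measured members ran from -0.18 for HAC1 to 0.43 for PDI1, and 8 of 9 were positive, against 43.3% of all ORFs. Their median was 0.20, and that of all ORFs was -0.03. PDI1, LHS1 and SCJ1 kept 1 sign on all 4 arrays, which 28.5% of ORFs did. All 3 were positive throughout, as were 13.1% of ORFs.

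**Figure D1:**
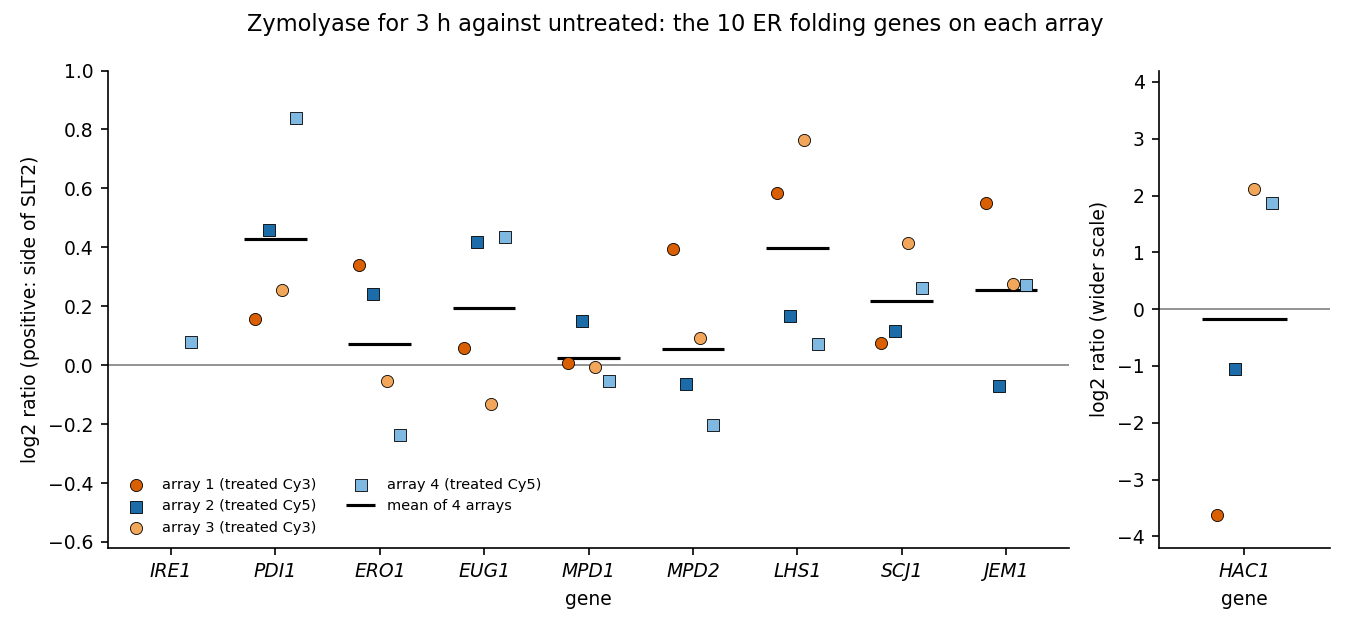
Log2 ratio of each member on each of the 4 arrays (circles, treated RNA on Cy3; squares, treated RNA on Cy5), with the mean of 4 arrays as a black line; HAC1 has a panel of its own with a wider scale. PDI1, LHS1 and SCJ1 lie above 0 on each array, IRE1 has 1 point, and HAC1 runs from -3.63 to 2.11.

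IRE1 encodes the kinase and endoribonuclease that senses unfolded proteins in the ER. It had a value on array 4 only, 0.08, so neither a spread nor a test could be had.

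HAC1 encodes the transcription factor of the response. It had -3.63 on array 1, -1.06 on array 2, 2.11 on array 3 and 1.87 on array 4. Arrays 1 and 2 lay far on the side opposite to SLT2 and arrays 3 and 4 far on its side, with no overlap between the pairs. Read as log2, array 1 showed a 12.4-fold difference one way and array 3 a 4.32-fold difference the other way. The mean of -0.18 ± 2.71 (SD, 4 arrays, n = 2 cultures) averages these opposite signs and does not show that HAC1 was unchanged. Its 95% interval ran from -1.95 to 1.59 (limma, adjusted p = 0.936). That interval rests on a variance drawn in part from all ORFs, and it was narrower than the range of the 4 values. With robust empirical Bayes the interval ran from -27.71 to 27.36 (limma, adjusted p = 0.990). The sign of the mean depended on which arrays were included. In a fit that weighs both dye orientations equally it was 1.26 without array 1, 0.56 without array 2, -1.61 without array 3 and -0.91 without array 4, and none of these passed. The deposited value is for the HAC1 ORF as a whole, and spliced and unspliced mRNA were not told apart here.

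The split of HAC1 did not follow the dyes, since each pair holds 1 array of each orientation. Arrays 3 and 4 averaged 1.99 and arrays 1 and 2 averaged -2.34, a difference of 4.33. Over 4543 ORFs this difference had a median of -0.08 and lay between -0.40 and 0.62 from the 5th to the 95th percentile, and that of HAC1 was the largest in size. It was also the largest with arrays centred (4.38), with arrays centred and scaled (4.25) and after quantile normalization (3.64), which were alternatives chosen after seeing the data. If arrays 1 and 2 are a culture and arrays 3 and 4 the other, the treated to untreated ratio of HAC1 had opposite signs in the 2 cultures. If array 1 pairs with 4 and array 2 with 3, the culture averages were -0.88 and 0.53, and the dye-swapped arrays of each culture then disagreed in sign. The labels do not settle which holds.

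ERO1 and MPD1 also had 1 sign on arrays 1 and 2 and the other on arrays 3 and 4, in the direction opposite to HAC1 and with no value beyond 0.34 in size. That pattern of signs, in either direction, was shared by 8.83% of ORFs. With each of the 4 values beyond 0.5 in size, it was found in 17 ORFs, all negative on arrays 1 and 2 as HAC1 was, and in 0 ORFs in the other direction. With each value beyond 1 it was found in 1 ORF, HAC1.

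The 10 ORFs nearest to HAC1 by Euclidean distance over the 4 arrays lay at distances of 1.00 to 1.91. This description was chosen after the values of HAC1 were seen. The nearest was YHR218W, which had -3.72, -1.08, 1.88 and 0.90 on arrays 1 to 4. Named genes among them were SIR4, a gene of silent chromatin, PUF4, which encodes an RNA-binding protein, and PHO4, which encodes a transcription factor of phosphate regulation. SIR4 had -2.41, -1.33, 1.43 and 0.89. PUF4 had -3.02, -1.22, 1.43 and 0.38. PHO4 had -3.26, -0.67, 0.52 and 1.26. The other 7 of the 10 have no name beyond their ORF name in the gene table. They were YHR218W, YLR162W, YML045W, YCL042W, YBL111C, YMR051C and YAR010C. What these ORFs encode, and whether they are of repeated sequence, was not examined.

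Of the ORFs beside HAC1 in name or in the gene table's order, those with 4 values, RIM15 and YFL032W, had its signs on all 4 arrays. These signs were found in 222 of 4543 ORFs. An ORF of the next systematic name was looked up for HAC1 only. RIM15, a kinase gene of nutrient signalling that adjoins HAC1 in that table, had -1.28, -0.51, 1.27 and 0.50. YFL032W, the ORF of the next systematic name, had -0.28, -0.96, 0.73 and 0.27. AGX1, on the other side of HAC1, had 0.11 on array 1 and 0.66 on array 4 and was empty on the other two, so it did not share the sign of HAC1 on array 1. The part of shared probe signal in these values was not tested.

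**Figure D2:**
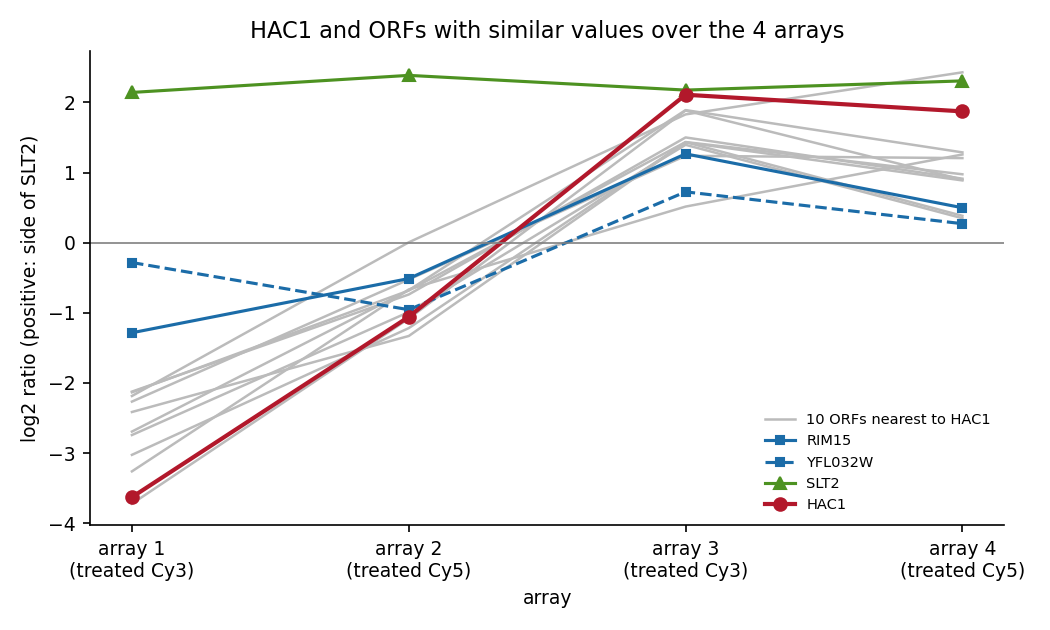
Log2 ratios on the 4 arrays for HAC1 (red), the 10 ORFs with the nearest values (grey), RIM15 and YFL032W (blue) and SLT2 (green); lines join the values of an ORF and imply no order of arrays. HAC1 is at -3.63, -1.06, 2.11 and 1.87 on arrays 1 to 4, whereas SLT2 stays between 2.14 and 2.39.

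**Figure D3:**
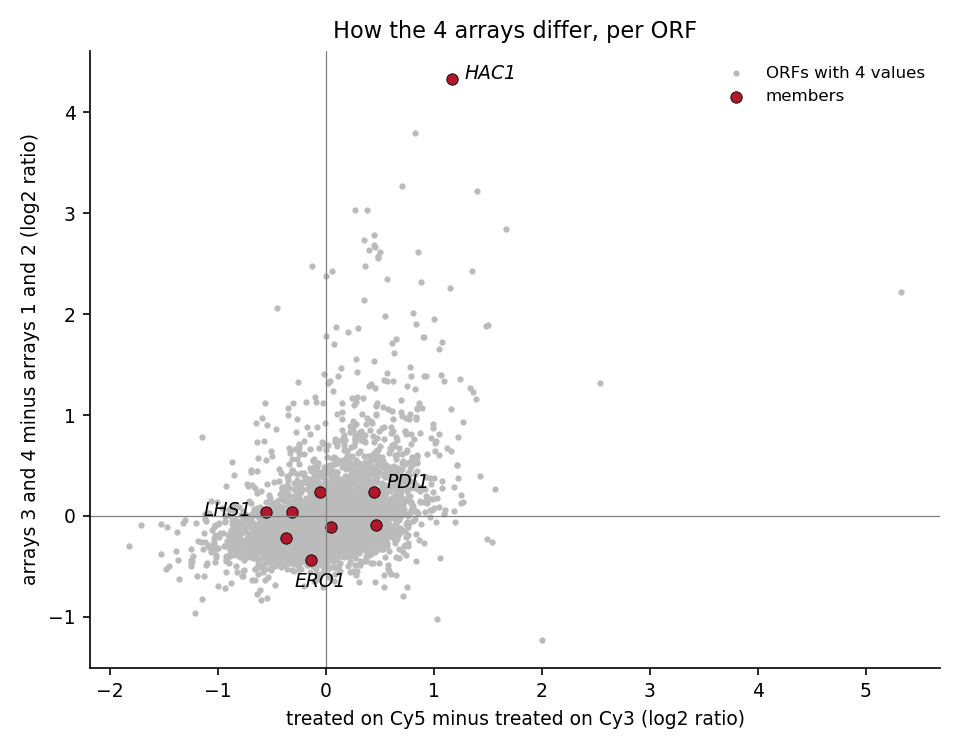
Each point is an ORF with 4 values: across, the mean log2 ratio with treated RNA on Cy5 minus that on Cy3; upwards, the mean of arrays 3 and 4 minus that of arrays 1 and 2. HAC1 is the topmost point at 4.33, and the other 8 members with 4 values lie between -0.44 and 0.24 on that axis.

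Enzymes of disulfide bond formation made up 5 of the members. Their means were all positive, against 43.3% of all ORFs, and ran from 0.02 to 0.43 with a median of 0.07. Those of ERO1, MPD1 and MPD2 were below 0.1 and changed sign in some fits that left an array out. None of the 5 passed the test. PDI1, the essential protein disulfide isomerase, had 0.16, 0.46, 0.25 and 0.84 on arrays 1 to 4. All 4 values lay on the side of SLT2, and the highest was on array 4. The mean was 0.43 ± 0.30 (SD, 4 arrays, n = 2 cultures), or 1.34-fold with a 95% interval of 1.10 to 1.65-fold, and it exceeded 93.4% of ORF means (limma, adjusted p = 0.0991). The interval lay above 0, but the value did not pass once adjusted over all ORFs.

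ERO1 encodes the oxidase that recharges Pdi1 with disulfide bonds. It had 0.34, 0.24, -0.05 and -0.24 on arrays 1 to 4, positive on the first pair and negative on the other. Its mean of 0.07 ± 0.27 was smaller than the spread between arrays (limma, adjusted p = 0.852). The interval ran from -0.25 to 0.40, with an upper end of 1.32-fold on the side of SLT2. That end was 0.43 with arrays centred and scaled, so it does not exclude a larger difference. PDI1 and ERO1, which act as partners, thus differed in how their arrays agreed; the difference between them was not tested.

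EUG1, MPD1 and MPD2 encode non-essential relatives of Pdi1. EUG1 had 0.06, 0.42, -0.13 and 0.43, with both higher values where treated RNA was on Cy5. Its mean was 0.20 ± 0.28 (limma, adjusted p = 0.440). MPD1 had 0.01, 0.15, -0.00 and -0.06, a mean of 0.02 ± 0.09 (limma, adjusted p = 0.944). It had the smallest SD among the 9 members, at the percentile 5.90 of the SDs of all ORFs. MPD2 had 0.39, -0.06, 0.09 and -0.20, positive where treated RNA was on Cy3 and negative where it was on Cy5, with a mean of 0.05 ± 0.26 (limma, adjusted p = 0.877). The intervals of the main test reached up to 0.47 for EUG1, 0.30 for MPD1 and 0.34 for MPD2. These upper ends changed with the setting, and that of EUG1 was 0.50 for independent arrays without a dye term. They do not exclude larger mean differences on the side of SLT2.

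The 3 chaperone members had means of 0.22 to 0.40, with a median of 0.26, and none passed the test. LHS1 encodes an Hsp70-related chaperone of the ER lumen that acts as a nucleotide exchange factor for Kar2, the main ER Hsp70. It had 0.58, 0.17, 0.77 and 0.07 on arrays 1 to 4, all on the side of SLT2. Both Cy3 values (arrays 1 and 3) were above both Cy5 values (arrays 2 and 4), by the dye of the treated RNA. MPD2 and JEM1 were separated by dye in the same direction, and PDI1 and EUG1 in the other. For JEM1 the gap was narrow, with 0.275 on array 3 against 0.271 on array 4. The share of ORFs separated in this way was not counted. The mean of LHS1 was 0.40 ± 0.33, or 1.32-fold with a 95% interval of 1.09 to 1.59-fold (limma, adjusted p = 0.104), above 92.8% of ORF means.

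SCJ1 and JEM1 encode J-domain partners of Kar2, Scj1 in the ER lumen and Jem1 at the ER membrane, where it is also known for nuclear fusion in mating. SCJ1 had 0.08, 0.12, 0.41 and 0.26. All 4 values were positive and the mean was 0.22 ± 0.15 (limma, adjusted p = 0.412), or 0.13 without array 3. JEM1 had 0.55, -0.07, 0.28 and 0.27, positive on 3 of 4 arrays, with a mean of 0.26 ± 0.25 (limma, adjusted p = 0.297), or 0.17 without array 4. Both intervals held 0, from -0.07 to 0.51 for SCJ1 and from -0.02 to 0.53 for JEM1.

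**Figure D4:**
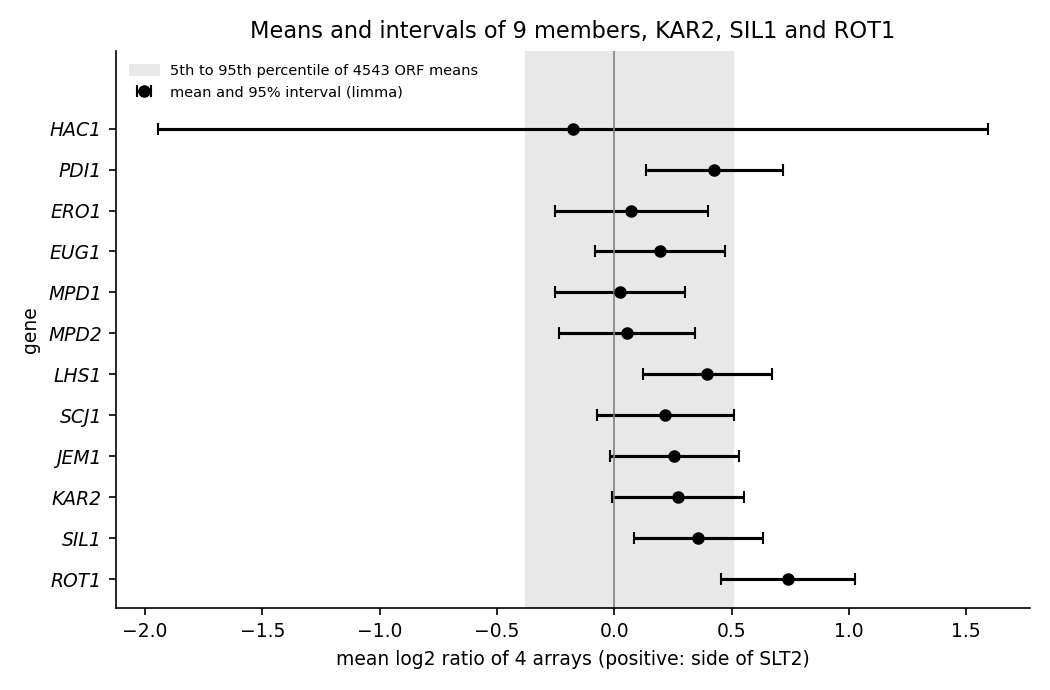
Mean log2 ratio over 4 arrays with its 95% interval from limma (the wider of the 2 culture pairings) for the 9 members with 4 values and for KAR2, SIL1 and ROT1; the grey band spans the 5th to the 95th percentile of 4543 ORF means, -0.38 to 0.51. The intervals of PDI1, LHS1, SIL1 and ROT1 lie above 0, and that of HAC1 runs from -1.95 to 1.59. The HAC1 interval with robust empirical Bayes, -27.71 to 27.36, is not drawn.

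The calls of PDI1 and LHS1 differed between settings. With arrays 1 and 2, and 3 and 4, as the cultures, neither passed (limma, adjusted p = 0.0991 for PDI1 and 0.104 for LHS1), as in the main test. With array 1 paired with 4 and array 2 with 3, PDI1 (limma, adjusted p = 0.00241) and LHS1 (0.00376) passed, among 27.1% of ORFs. The same pair passed with the 4 arrays as if independent and a dye term, where 11.3% of ORFs did, with ORFs of 3 or more values in the same kind of fit (10.6%) and with robust empirical Bayes (12.8%). When the dye term was dropped from the fit of independent arrays, neither passed (limma, adjusted p = 0.133 for PDI1 and 0.178 for LHS1). At an adjusted p under 0.1, PDI1 alone passed, among 9.91% of ORFs. The other 7 members with 4 values passed in none of the settings run.

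Differences by dye orientation ran both ways among the members. The mean with treated RNA on Cy5 minus that on Cy3 was 0.44 for PDI1 (0.65 against 0.20) and 0.46 for EUG1 (0.43 against -0.04). It was -0.56 for LHS1 (0.12 against 0.67), -0.38 for MPD2 and -0.31 for JEM1. For SCJ1 (-0.06), MPD1 (0.05) and ERO1 (-0.14) it was smaller in size than for these 5, and for HAC1 it was 1.17. Across ORFs the 5th and 95th percentiles of this difference were -0.68 and 0.66, so HAC1 alone among the 9 lay outside them. MPD2 was the only member whose sign followed the dye on all 4 arrays, as it did for 21.3% of ORFs. PDI1 and LHS1 were positive in both orientations.

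Of the other genes of the ER, 64 were listed in 7 groups from general knowledge of yeast, and 58 had values on 4 arrays. ROT1 passed on the side of SLT2 and no gene passed opposite (limma, adjusted p under 0.05). That is 1 of 58, against 5.94% of all ORFs. At an unadjusted p under 0.05 there were 2 of 58, ROT1 and SIL1, against 19.3% of all ORFs. The median of the 58 means was -0.01, and that of all ORFs was -0.03.

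The list of other ER chaperones and oxidoreductases had the highest median of these groups, 0.14. In it 9 of 10 means were positive, against 43.3% of all ORFs. ROT1, which encodes an essential ER membrane protein with chaperone activity that is needed for normal cell walls, had 0.99, 0.68, 0.70 and 0.60. All 4 values lay above those of every member on the same array except the HAC1 values on arrays 3 and 4, the LHS1 value on array 3 and the PDI1 value on array 4. Its mean of 0.74 ± 0.17, or 1.67-fold with an interval of 1.37 to 2.04-fold, passed the test (limma, adjusted p = 0.0104). It also passed in each alternative run, with adjusted p-values up to 0.0371.

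KAR2, which encodes the main Hsp70 of the ER and is a textbook target of Hac1, had 0.78, -0.10, 0.43 and -0.02. Values were positive with treated RNA on Cy3 and negative with it on Cy5, and the mean of 0.27 ± 0.41 did not pass (limma, adjusted p = 0.273). As with LHS1, MPD2 and JEM1, the values of KAR2 on arrays 1 and 3 exceeded those on arrays 2 and 4. The share of ORFs with such a separation was not counted. SIL1, a further nucleotide exchange factor for Kar2, had 0.24, 0.48, 0.09 and 0.63. All 4 were positive and, as with PDI1 and EUG1, the higher values were on arrays 2 and 4, with a mean of 0.36 ± 0.24 (limma, adjusted p = 0.138). The lowest mean of this list was that of the calnexin homologue CNE1, at -0.06 ± 0.39.

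The Ire1 and Hac1 circuit, a list of the ligase and the phosphotransferase that act in tRNA and HAC1 splicing and of regulators linked to Ire1 or Hac1, had a median of -0.01 over 7 measured genes. It ran from -0.25 ± 0.15 for the phosphotransferase gene TPT1 to 0.14 ± 0.47 for INO4, a regulator of phospholipid genes. ER-associated degradation, which returns misfolded proteins to the cytosol for destruction, had a median of 0.05 over 13 genes. Its range was -0.21 ± 0.16 for the ubiquitin-conjugating enzyme gene UBC6 to 0.30 ± 0.47 for the ubiquitin ligase gene HRD1. None of these genes passed.

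The remaining groups had medians between -0.08 and -0.01, near the median of all ORFs, and no gene of theirs passed. The translocon list, whose products carry proteins into the ER, ran from -0.24 ± 0.26 for SSH1 to 0.12 ± 0.48 for SEC61. Subunits of the oligosaccharyltransferase, which attaches N-glycans, ran from -0.16 ± 0.52 for STT3 to 0.12 ± 0.15 for WBP1. Glycan trimming and reading ran from -0.16 ± 0.51 for the mannosidase gene MNL1 to 0.22 ± 0.21 for the glucosidase gene CWH41. Genes of protein O-mannosylation, a modification found on many wall proteins, ran from -0.23 ± 0.17 for PMT4 to 0.03 ± 0.14 for PMT7. Genes of meiosis and sporulation, listed as markers of another cell state, had 4 values for 0 of 10, and IME1, the one with most values, had -0.25, -0.33 and 0.02 on arrays 1, 3 and 4.

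**Figure D5:**
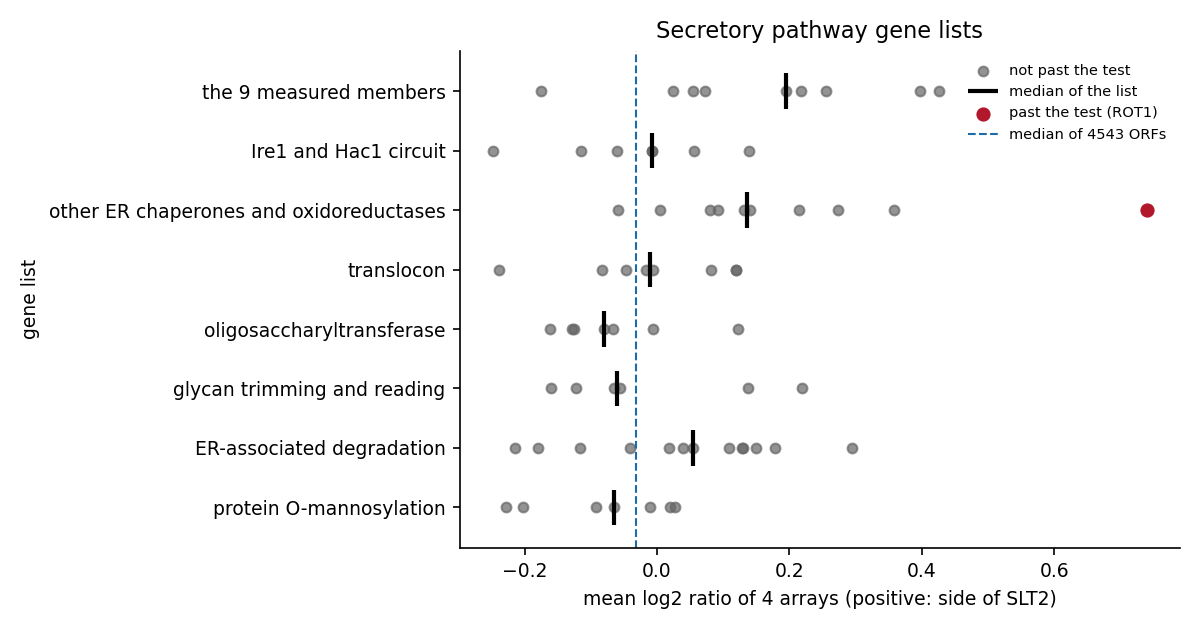
Mean log2 ratio of each measured gene (points) in the members' list and the 7 other ER lists, with the median of each list (black bar) and the median of 4543 ORFs (dashed line, -0.03); red marks the gene past the test. The medians are 0.20 for the members and 0.14 for the other ER chaperones and oxidoreductases, and ROT1 stands at 0.74.

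Genes next to the members in the gene table's order had values of their own. YML131W, which adjoins ERO1, had 1.34, 1.72, 1.36 and 1.55 and passed on the side of SLT2 (limma, adjusted p = 0.000209). YOR289W, which adjoins MPD1, had 0.86, 0.66, 0.40 and 0.52 and passed too (limma, adjusted p = 0.0315). ERO1 and MPD1 themselves had means of 0.07 and 0.02. YCL042W, which adjoins PDI1 and is among the 10 ORFs nearest to HAC1, had -2.19, 0.01, 1.83 and 2.43. PDI1 was lowest on array 1 and highest on array 4, as YCL042W was. Whether YCL042W and PDI1 share probe signal was not tested.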

How the data were processed

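The authors deposited 1 table of values per ORF and array, which holds log ratios of the 2 channels, taken here as log2 (the base is not stated). How they were normalized, background-corrected and filtered was: not given in the sources used here. Of 6209 rows, 2 control rows were left out; 5654 of 6207 ORFs matched the RefSeq gene table (assembly R64) by locus tag. Empty cells made up 16.0% to 21.3% of ORFs per array, and array medians after turning for the dyes lay between -0.05 and 0.02. Limma 3.58.1 in R 4.3.3 (lmFit, eBayes) tested the 4543 ORFs with 4 values on averages of the arrays of a culture (n = 2), for both possible pairings, and each ORF kept its larger p and wider 95% interval, with Benjamini-Hochberg adjustment over all of them. The labels do not say whether the 2 cultures were independent starts, so p-values speak for these samples only. With 2 averages per ORF, limma draws the variance of each ORF in large part from all tested ORFs. The p-values and intervals therefore do not measure the spread of a single gene, unlike the SDs printed beside them. The procedure was also run on simulated data of 4 independent arrays, with no dye effect and no shared culture. That run cannot show how the procedure behaves with the dye and culture structure of these data. Alternatives were each pairing, 4 arrays as if independent, centring, scaling, quantile normalization, robust empirical Bayes, a minimum of 3 values per ORF, another threshold and leaving out each array. The members and lists were chosen with earlier results of these data known. Named were the members, SLT2, KAR2, and in each list genes past the test and its extremes; SIL1, IME1 and the genes near HAC1, PDI1, ERO1 and MPD1 were named after their values were seen. No sequence tables were used here, so no sequences are printed.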

Additional observations from a re-analysis of the deposited data

Results flagged for a closer look

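One array stood apart from the other 3 for 3 of the 78 sets of 4 values checked, and chance marks about 1 in 20. CPR5, an ER peptidyl-prolyl isomerase gene, had -0.0763 on array 3 and 0.20 to 0.23 elsewhere. WBP1, an oligosaccharyltransferase subunit gene, had 0.34 on array 2 and 0.03 to 0.06 elsewhere. UFD1, a gene of ER-associated degradation, had 0.0337 on array 3 and 0.19 on each of the others. None of the 9 members with 4 values was marked in this way.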

How the results depend on the processing

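The count of members past the test was 0, and it was also 0 with arrays 1 and 2, and 3 and 4, as the cultures (270 ORFs, as in the main test). The main count thus matched that of 1 of the 2 possible pairings. It was 2 (PDI1 and LHS1) with array 1 paired with 4 and array 2 with 3 (1229 ORFs past the test, against 270), with all 4 arrays treated as independent plus a dye term (512), with ORFs of 3 or more values (527) and with robust empirical Bayes (583), and 1 (PDI1) at an adjusted p under 0.1 (450). It stayed 0 for independent arrays without a dye term (276). Centring and scaling gave 166 ORFs. The count of pathway genes past the test was 1 (ROT1). It was 6 with array 1 paired with 4 and array 2 with 3 (TPT1, KAR2, SIL1, ROT1, HRD1 and PMT4), and 2 (SIL1 and ROT1) for independent arrays plus a dye term and for ORFs with 3 or more values. The cause of these changes was not tested. The mean of HAC1 turned to 0.12 with quantile normalization and ran from -1.61 to 1.26 when each array was left out in turn. Means near 0 also changed sign there, from -0.0476 to 0.19 for ERO1 (-0.0259 at its other reversal), -0.0268 to 0.0759 for MPD1 and -0.0210 to 0.13 for MPD2. The means of the other 5 measured members kept their sign in every setting run except the one that turns all signs, and with each array left out ran from 0.33 to 0.52 for PDI1, 0.15 to 0.24 for EUG1, 0.35 to 0.44 for LHS1, 0.13 to 0.30 for SCJ1 and 0.17 to 0.34 for JEM1. The members' median ran from 0.17 to 0.25 over the alternatives, and the count with 1 sign was 3 or 4. Fits without 1 array took the others as independent with a dye term, so the unit of replication changed as well. Signal over background is unknown, which limits what a small ratio can show.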

Other observations

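Over the 4543 ORFs with 4 values, the SD of the difference between arrays 3 and 4 and arrays 1 and 2 was 0.39, that between the dye orientations was 0.42, and that between arrays 2 and 3 and arrays 1 and 4 was 0.21. HAC1 had the second largest SD over the 4 arrays among these ORFs, and its difference between arrays 2 and 3 and arrays 1 and 4 was 1.40.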
